A study of Mus musculus with 18 samples.

Results

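The enzymes described here make NADPH, the reduced cofactor that cells spend on fatty acid synthesis and on the recycling of glutathione and thioredoxin. They were named as 10 members: G6pdx, H6pd, Pgls, Pgd, Rpia, Tkt and Taldo1 of the pentose phosphate pathway, and Me1, Idh1 and Nnt outside it. Members were found as the probes, other than control probes, whose transcript identifier on the array maps to one of these symbols. A probe was mapped for 8 of the 10, all 8 were well above background, and these are 8 of 17721 genes tested. Rpia and Nnt were not analysed here. G6pdx, Pgls, Taldo1, Me1 and Idh1 had 1 probe each, while H6pd, Pgd and Tkt had 2, of which the brighter was used.

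Gene expression was measured in whole liver of female mice aged 6 weeks on 18 arrays, in 6 groups of 3. Nrf1 CKO livers, Nrf1(dN/-)::Alb-Cre, were set against Nrf1 Control livers, Nrf1(dN/+), both of mixed strain. Nrf2 KO livers, Nrf2(-/-), were set against Nrf2 Control livers, Nrf2(+/+), both C57BL/6. Keap1 KD livers, Keap1(Kd/-), were set against Keap1 Control livers, Keap1(Kd/+), both of mixed strain. The albumin promoter that drives Cre acts in hepatocytes, so that other liver cells of the Nrf1 CKO mice are not its target, and the labels name no Cre in the Nrf1 Control group. The Nrf1 and Keap1 controls each carry 1 altered allele of their own line's gene. Nothing in the labels tells whether the 3 samples of each group were taken from different animals, and the p-values therefore cover the spread among the samples at hand, part or all of which may be technical.

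In the oxidative branch of the pentose phosphate pathway, glucose-6-phosphate dehydrogenase (G6pdx) and 6-phosphogluconate dehydrogenase (Pgd) each reduce NADP to NADPH, and 6-phosphogluconolactonase (Pgls) works between them. H6pd catalyses the same first steps inside the endoplasmic reticulum. In the non-oxidative branch, transketolase (Tkt) and transaldolase (Taldo1) exchange carbon between sugar phosphates and return them to glycolysis. Cytosolic malic enzyme (Me1) and isocitrate dehydrogenase (Idh1) form NADPH outside the pathway, and liver uses it heavily for lipid synthesis and detoxification. NRF2 is a transcription factor that binds antioxidant response elements together with small MAF proteins, NRF1 is a related factor, and KEAP1 directs NRF2 to degradation. Several of these enzymes are known as NRF2 targets in mouse tissues.

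The windows shown, around annotated transcript starts, are those of Pgd and Tkt, the members that passed the test in Keap1 KD livers. Those of the other members with a match to the core of the antioxidant response element are also shown. The core was searched as TGACNNNGC on both strands in windows of 300 bases, 250 before and 50 after the annotated start, which is window base 251. Sequences and coordinates are RefSeq's, in build GRCm38.p6, and each runs 5′ to 3′ along the gene. Capitals mark the match. Windows were found for 9 members, Nnt being the exception, 12 windows in all, and 3 of the 12 held a match, against 4071 of 32851 windows of all genes (12.4%). Pgd has a window at chr4:149166656-149166955 on the minus strand without a match and one at chr4:149166033-149166332 on the minus strand with a match from window base 254. That match begins 3 bases past the annotated start of the downstream window. The only match of Pgd thus lies in transcribed sequence and not upstream of a start. Whether the downstream start is used in liver was not tested. Tkt, at chr14:30548881-30549180 on the plus strand, held no match in this window. Me1, at chr9:86695865-86696164 on the minus strand, held a match from window base 245. Its other window, at chr9:86687228-86687527 on the minus strand, held none and is not shown. G6pdx, at chrX:74428831-74429130 on the minus strand, held a match from window base 194 that reads TGACNNNGC on the opposite strand. A match is a run of letters and not a measured binding site.

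Pgd, upstream window: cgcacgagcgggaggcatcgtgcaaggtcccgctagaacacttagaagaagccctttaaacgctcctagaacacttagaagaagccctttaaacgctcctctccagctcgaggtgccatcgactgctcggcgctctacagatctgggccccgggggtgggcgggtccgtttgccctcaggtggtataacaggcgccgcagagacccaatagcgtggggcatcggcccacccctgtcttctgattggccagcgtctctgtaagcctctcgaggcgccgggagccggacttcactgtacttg

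Pgd, downstream window: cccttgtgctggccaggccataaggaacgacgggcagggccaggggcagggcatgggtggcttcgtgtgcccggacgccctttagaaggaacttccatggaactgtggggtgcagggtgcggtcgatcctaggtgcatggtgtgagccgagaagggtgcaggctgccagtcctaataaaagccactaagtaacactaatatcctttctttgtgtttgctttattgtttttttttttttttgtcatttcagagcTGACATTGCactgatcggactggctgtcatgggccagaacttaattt

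Tkt: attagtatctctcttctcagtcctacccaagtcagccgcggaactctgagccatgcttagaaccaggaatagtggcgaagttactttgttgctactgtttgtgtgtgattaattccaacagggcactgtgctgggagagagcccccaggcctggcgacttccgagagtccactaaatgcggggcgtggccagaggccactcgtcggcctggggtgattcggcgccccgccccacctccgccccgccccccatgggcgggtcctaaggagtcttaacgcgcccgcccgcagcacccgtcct

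Me1: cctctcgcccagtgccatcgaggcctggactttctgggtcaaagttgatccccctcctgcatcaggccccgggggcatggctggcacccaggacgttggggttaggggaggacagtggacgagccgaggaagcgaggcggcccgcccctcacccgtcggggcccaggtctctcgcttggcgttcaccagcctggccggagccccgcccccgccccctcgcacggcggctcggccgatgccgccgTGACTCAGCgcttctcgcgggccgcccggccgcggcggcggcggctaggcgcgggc

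G6pdx: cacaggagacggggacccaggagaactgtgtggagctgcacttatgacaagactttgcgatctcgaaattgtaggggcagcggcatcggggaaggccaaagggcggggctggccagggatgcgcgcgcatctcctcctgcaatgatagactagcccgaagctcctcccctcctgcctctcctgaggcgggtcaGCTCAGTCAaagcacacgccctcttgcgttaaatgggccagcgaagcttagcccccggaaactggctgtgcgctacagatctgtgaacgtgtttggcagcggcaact

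Levels are log2 of the probe's signal minus log2 of the array's 75th percentile, so that 0 is the 75th percentile of that array, and differences are mutant minus its own control on the same log2 scale. Levels of different genes come from different probes and are not compared with each other. Each array held 43379 spots that were not controls, of which 21668 to 28213 were well above background, and values of samples of the same group correlated at 0.973 to 0.991 across genes. The targeted genes were lower in their own lines: Nfe2l1, which encodes NRF1, was at least 469-fold lower in Nrf1 CKO, Nfe2l2, which encodes NRF2, differed by −8.20 in Nrf2 KO with 1 of the 3 KO arrays above background, and Keap1 differed by −2.39 in Keap1 KD (limma, adjusted p = 5.88e-15, 4.46e-07 and 0.00124). The position of these 3 probes relative to the deletions was not analysed here. Of 8 measured hepatocyte markers the summed level, with the 75th percentile set to 1, was 1458 to 2958 across the 18 arrays.

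**Figure D1:**
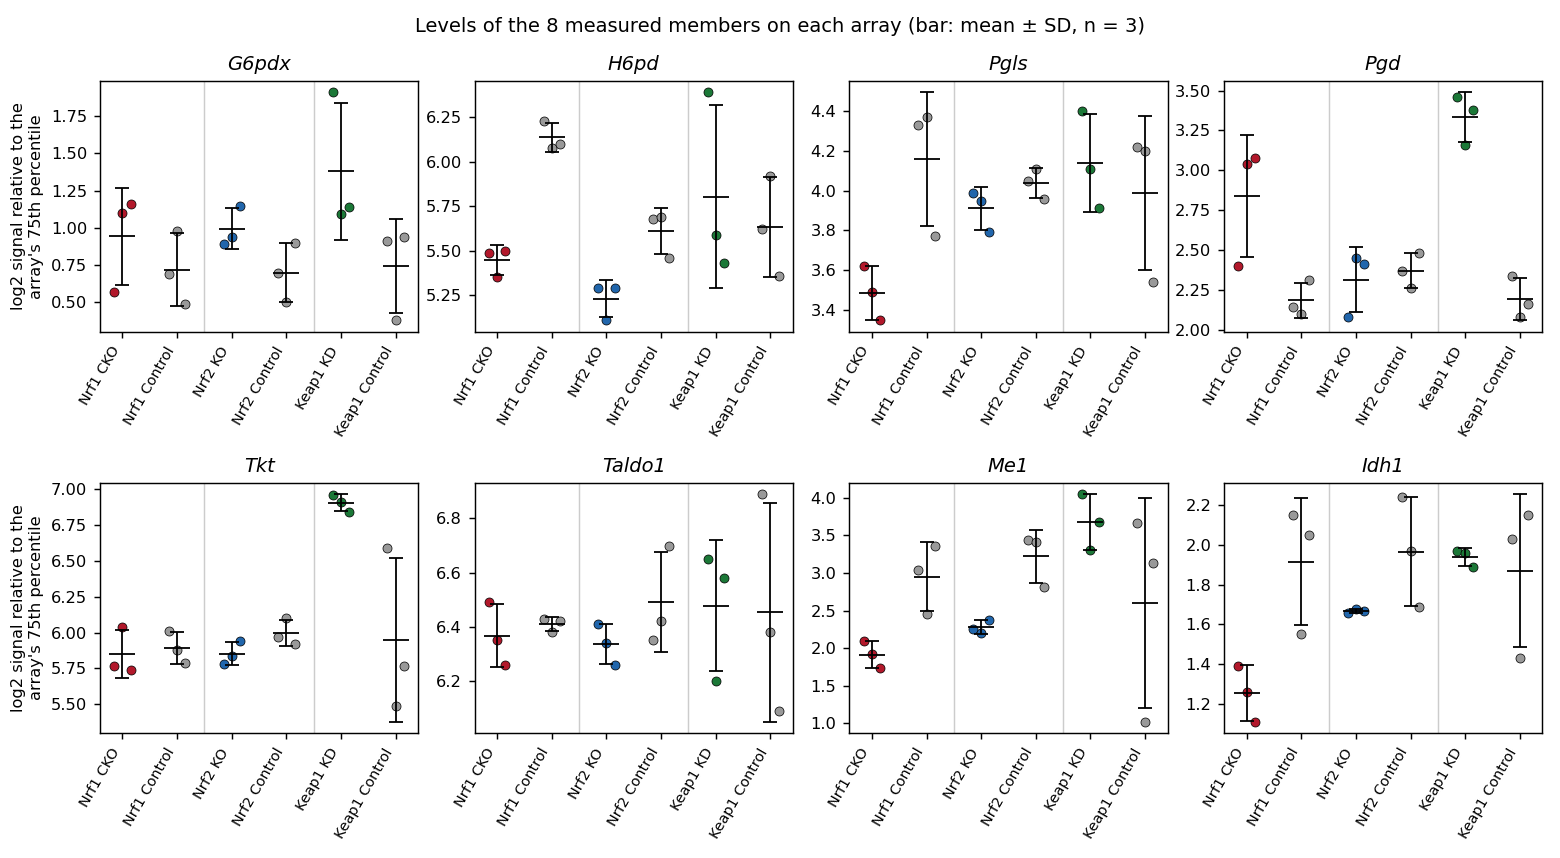
Levels of the 8 measured members on each of the 18 arrays, in log2 units above the 75th percentile of that array (y axis, scaled per gene), for each mutant group in colour and its control in grey. Points are arrays and bars are the mean ± SD of 3. The 3 Keap1 KD arrays lie above every other array for Pgd (3.16 to 3.46) and for Tkt (6.84 to 6.96).

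In Keap1 KD livers Pgd and Tkt rose, Pgd to 2.20-fold and Tkt to 1.94-fold of Keap1 Control, and no member fell. These were 2 of 8 members called higher (limma, adjusted p under 0.05), where 0.948% of all genes tested were called higher and 4.58% lower. All 8 differences were above 0, with a median of 0.40 against 0.00 over all genes, although Taldo1 (0.02) and Idh1 (0.07) were close to 0 and turned to −0.07 and −0.01 after quantile normalization. With array quality weights 5 were above 0 and 3 below. Without Keap1 Control 2, Keap1 Control 3 or Keap1 KD 1 in turn, 6 were above and 2 below. Over the alternatives H6pd reached −0.12 and Pgls −0.07.

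In the oxidative branch, Pgd had levels of 3.46, 3.16 and 3.38 in Keap1 KD, against 2.34, 2.08 and 2.16 in Keap1 Control. Every KD array lay above every control array, and above every array of the other 4 groups. The difference was 1.14 (SE 0.18, 95% interval 0.75 to 1.52; limma, adjusted p = 0.00342, n = 3 each), and the second Pgd probe gave 0.90 (SE 0.20). G6pdx, which feeds Pgd's pathway at its first and rate-limiting step, had levels of 1.91, 1.09 and 1.14 in Keap1 KD, against 0.91, 0.38 and 0.94 in Keap1 Control. The groups did not overlap, but KD 1 stood well above the other KD arrays, and the difference of 0.63 (SE 0.24; limma, adjusted p = 0.162) did not pass the test and was 0.37 without that array. Pgls, at 4.40, 4.11 and 3.91 in Keap1 KD against 4.22, 4.20 and 3.54 in Keap1 Control, and H6pd, at 6.39, 5.59 and 5.43 against 5.62, 5.92 and 5.36, overlapped. Their differences were 0.15 (95% interval −0.28 to 0.59) and 0.17 (95% interval −0.28 to 0.62), and the second H6pd probe gave 0.26 (SE 0.17).

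In the non-oxidative branch, Tkt had levels of 6.96, 6.91 and 6.84 in Keap1 KD, against 6.59, 5.49 and 5.77 in Keap1 Control. The KD arrays were close together and all above the controls, of which Control 1 was the highest. The difference was 0.96 (SE 0.21, 95% interval 0.51 to 1.40; limma, adjusted p = 0.0159, n = 3 each). The second Tkt probe, much dimmer and well above background on 14 of 18 arrays, gave 1.22 (SE 0.41). On that probe the groups overlapped, at −3.95, −2.39 and −2.53 in Keap1 KD against −3.66, −5.20 and −3.67 in Keap1 Control. Its lowest value, in Control 2, was not well above background. Taldo1, the partner of Tkt in the same branch, had levels of 6.65, 6.20 and 6.58 in Keap1 KD, against 6.89, 6.38 and 6.09 in Keap1 Control. The groups overlapped, and the difference of 0.02 had a 95% interval of −0.37 to 0.42.

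Outside the pathway, Me1 had levels of 4.05, 3.31 and 3.68 in Keap1 KD, against 3.66, 1.02 and 3.13 in Keap1 Control. Control 2 lay far below the other controls, and the groups overlapped. The difference of 1.08 (SE 0.48; limma, adjusted p = 0.260) did not pass the test, and it was 0.29 without Keap1 Control 2 and 1.61 without Keap1 Control 1. Idh1, at 1.97, 1.96 and 1.89 in Keap1 KD against 2.03, 1.43 and 2.15 in Keap1 Control, showed a difference of 0.07 (95% interval −0.37 to 0.50). The groups did not overlap for 3 members, G6pdx, Pgd and Tkt, with KD above control (5.55% of genes), and for 0 members with KD below control (11.4% of genes).

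The Pgd call was kept without each of the 6 arrays of the line in turn (1.07 to 1.22), whereas Tkt lost its call without Keap1 Control 2 (0.73, adjusted p = 0.0548), Keap1 Control 3 (0.87, adjusted p = 0.0752) or Keap1 KD 1 (0.93, adjusted p = 0.0534). Both lost their calls when the fit held nothing but the 6 Keap1 arrays (adjusted p = 0.0657 for Pgd and 0.206 for Tkt). With slide as a block Pgd differed by 1.24 (adjusted p = 0.0961) and Tkt by 1.17 (adjusted p = 0.0501). Within the 1 slide that held both groups, with 1 array each, Pgd differed by 1.22 and Tkt by 1.07, and within the 1 scan date that held both, with 1 KD and 2 control arrays, by 1.26 and 1.21.

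In Nrf1 CKO livers Pgd rose to 1.58-fold of Nrf1 Control, while H6pd, Pgls and Idh1 fell, to 0.621-fold, 0.627-fold and 0.632-fold. These were 1 of 8 members called higher, where 7.99% of all genes were, and 3 called lower, where 10.9% of all genes were. The median difference of the members was −0.35, against −0.09 over all genes, and it was 0.02 after quantile normalization.

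In the oxidative branch, Pgd had levels of 2.40, 3.04 and 3.08 in Nrf1 CKO, against 2.14, 2.10 and 2.31 in Nrf1 Control. All CKO arrays lay above the controls, CKO 1 only a little above Control 3. The difference was 0.66 (SE 0.18, 95% interval 0.27 to 1.04; limma, adjusted p = 0.0220, n = 3 each), and the second probe gave 0.62 (SE 0.20). Pgls, the lactonase one step before it, had levels of 3.62, 3.49 and 3.35 in Nrf1 CKO, against 4.33, 4.37 and 3.77 in Nrf1 Control. The groups did not overlap, and Control 3 was the nearest control to the CKO arrays. The difference was −0.67 (SE 0.20, 95% interval −1.11 to −0.24; limma, adjusted p = 0.0341, n = 3 each). G6pdx, at 0.57, 1.10 and 1.16 in Nrf1 CKO against 0.69, 0.98 and 0.49 in Nrf1 Control, overlapped, with a difference of 0.23 (95% interval −0.28 to 0.74). Neighbouring steps of the branch moved in opposite directions on these arrays, Pgd up and Pgls down.

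H6pd, the counterpart in the endoplasmic reticulum, had levels of 5.49, 5.35 and 5.50 in Nrf1 CKO, against 6.23, 6.08 and 6.10 in Nrf1 Control. Both groups were tight and well apart. The difference was −0.69 (SE 0.21, 95% interval −1.14 to −0.24; limma, adjusted p = 0.0345, n = 3 each), and −0.37 (SE 0.17) on the second probe. Tkt, at 5.77, 6.04 and 5.74 in Nrf1 CKO against 6.01, 5.88 and 5.79 in Nrf1 Control, and Taldo1, at 6.49, 6.35 and 6.26 against 6.43, 6.38 and 6.42, overlapped. Their differences were both −0.04, with 95% intervals of −0.49 to 0.40 for Tkt and −0.44 to 0.35 for Taldo1. The second Tkt probe, well above background on 1 of the 3 Nrf1 Control arrays, gave 0.48 (SE 0.41).

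Outside the pathway, Idh1 had levels of 1.39, 1.26 and 1.11 in Nrf1 CKO, against 2.15, 1.55 and 2.05 in Nrf1 Control. All CKO arrays lay below the controls, and Control 2 was the nearest to them. The difference was −0.66 (SE 0.20, 95% interval −1.10 to −0.23; limma, adjusted p = 0.0357, n = 3 each). Me1 had levels of 2.09, 1.92 and 1.73 in Nrf1 CKO, against 3.04, 2.46 and 3.36 in Nrf1 Control. The groups did not overlap. The SE rests on the spread within all 6 groups, which was widest in Keap1 Control (SD 1.40, against 0.46 in Nrf1 Control). The difference of −1.04 (SE 0.48, 95% interval −2.05 to −0.02; limma, adjusted p = 0.137) did not pass the test. It did pass when the fit held nothing but the 6 Nrf1 arrays (adjusted p = 0.0456) and with array quality weights (−1.01, adjusted p = 0.0257). CKO lay wholly above control for 1 member (15.3% of genes) and wholly below it for 4 members (28.1% of genes).

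The 4 calls rested on few arrays: without Nrf1 Control 1, CKO 2 or CKO 3 in turn 0 members were called, without Nrf1 Control 2 there was 1, and without Nrf1 Control 3 there were 2, with differences of 0.54 to 0.88 for Pgd, −0.72 to −0.64 for H6pd, −0.87 to −0.57 for Pgls and −0.85 to −0.54 for Idh1. On the 1 slide that held both groups, with 3 CKO arrays and Nrf1 Control 3, the differences were 0.53 for Pgd, −0.66 for H6pd, −0.29 for Pgls and −0.79 for Idh1, and with slide entered as a block none of the 4 was called (adjusted p = 0.367 for Pgd, 0.292 for H6pd, 0.492 for Pgls and 0.253 for Idh1). All Nrf1 arrays shared 1 scan date.

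Markers of several cell types moved in the same Nrf1 CKO livers. Of 8 measured hepatocyte markers 3 were called lower and 0 higher, and their summed level was 1458 to 2152 in Nrf1 CKO, against 2368 to 2845 in Nrf1 Control. Of 10 stellate cell markers 8 were called higher (summed level 125 to 175 in Nrf1 CKO, against 82.9 to 107 in Nrf1 Control), of 9 macrophage markers 4 were (77.4 to 273, against 55.0 to 103) and of 9 cell division genes 8 were (46.4 to 81.3, against 11.2 to 18.5). Among the 4 macrophage markers, Gpnmb passed the background filter only through the Nrf1 CKO group, and Marco ran from 4.27 to 7.57 there. The macrophage markers Adgre1 (0.03), Clec4f (0.12), Csf1r (0.19), Timd4 (0.12) and Vsig4 (0.60) were not called. Of 8 markers of the sinusoidal endothelium 1 was called, lower. Of 6 lymphocyte markers 1 was called, higher, and the called markers were 0 of 6 for cholangiocytes, 0 of 4 for neutrophils and 0 of 3 for erythroid cells. Cftr, Cd4, Cd79a, Elane and Epb42, among the defining markers of these last cell types, were not above background. In whole liver, fewer cells of a type and less RNA per cell cannot be told apart, and the part of these shifts in the differences of H6pd, Pgls, Idh1 and Pgd was not tested. In Keap1 KD livers 0 of the 8 hepatocyte markers were called (summed level 2050 to 2851 in Keap1 KD, against 2211 to 2958 in Keap1 Control), while the macrophage marker Trem2 (1.51) and the endothelial marker Lyve1 (1.09) were called higher and the stellate marker Lum (−0.87) lower (adjusted p = 0.0165, 0.0242 and 0.0443). The median differences were −0.13 over 9 macrophage, −0.21 over 8 endothelial and −0.20 over 10 stellate cell markers. The summed macrophage level was 115 to 126 in Keap1 KD, against 47.4 to 97.8 in Keap1 Control, and Marco, at 6.07 ± 0.19 in Keap1 KD and 3.93 ± 0.59 in Keap1 Control (SD, n = 3 each; limma, adjusted p = 0.0807), was not called, while 6 of the 9 markers had differences below 0. The part of these markers in the Pgd and Tkt differences was not tested.

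In Nrf2 KO livers 0 of 8 members passed the test (limma, adjusted p from 0.596 to 0.957, and 0 members at an unadjusted p under 0.05). Few genes passed in this comparison at all, 0.00564% higher and 0.0564% lower of those tested. Of the 8 differences 7 were below 0, with a median of −0.15 against 0.01 over all genes, but with slide as a block 6 were above 0 and 2 below (median 0.41), and likewise with scan date as a block (median 0.33).

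Me1 had levels of 2.25, 2.20 and 2.38 in Nrf2 KO, against 3.44, 3.41 and 2.81 in Nrf2 Control. The KO arrays were tight and all below the controls, and the difference was −0.94 (SE 0.48, 95% interval −1.96 to 0.07; limma, adjusted p = 0.596, n = 3 each). This SE also takes in the wide spread of Me1 in Keap1 Control (SD 1.40). H6pd, at 5.29, 5.11 and 5.29 in Nrf2 KO against 5.68, 5.69 and 5.46 in Nrf2 Control, differed by −0.38 (95% interval −0.83 to 0.07), and by −0.27 (SE 0.17) on the second probe. Idh1, at 1.66, 1.68 and 1.67 in Nrf2 KO against 2.24, 1.97 and 1.69 in Nrf2 Control, differed by −0.30 (95% interval −0.73 to 0.14). These were the 3 members whose KO arrays lay wholly below their controls (11.0% of genes), and for 0 members did they lie wholly above (9.81% of genes).

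Pgd had levels of 2.08, 2.45 and 2.41 in Nrf2 KO, against 2.37, 2.26 and 2.48 in Nrf2 Control. The groups overlapped, with a difference of −0.06 (95% interval −0.44 to 0.33), and the second Pgd probe gave −0.26 (SE 0.20). Tkt, at 5.78, 5.84 and 5.94 in Nrf2 KO against 5.97, 6.10 and 5.92 in Nrf2 Control, overlapped as well, with a difference of −0.14 (95% interval −0.59 to 0.31). Its second probe gave −0.12 (SE 0.41). G6pdx was at 0.89, 0.94 and 1.15 in Nrf2 KO, against 0.70, 0.50 and 0.90 in Nrf2 Control, the only member with a difference above 0 (0.30, 95% interval −0.21 to 0.81), and its groups overlapped at Control 3. Pgls (−0.13, 95% interval −0.57 to 0.31) and Taldo1 (−0.16, 95% interval −0.55 to 0.24) overlapped too. No slide and no scan date held both Nrf2 groups, so that these cannot be separated from the genotype within a slide. A fit with slide as a block, which joins the groups only through Keap1 arrays, placed Me1 at 0.92 and Tkt at 0.84, and one with scan date as a block placed them at 0.60 and 0.78, all 4 values of opposite sign to those above and not called.

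**Figure D2:**
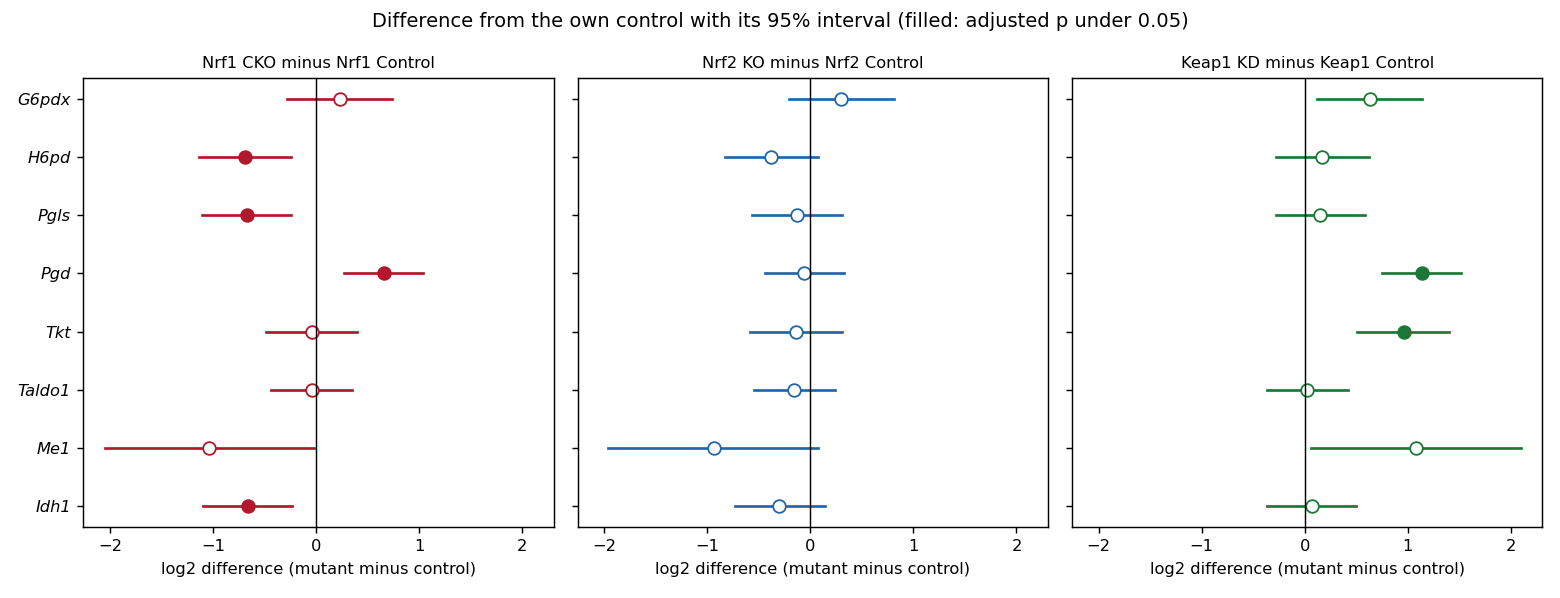
Difference from the own control (x axis, log2, mutant minus control) for each of the 8 measured members in Nrf1 CKO, Nrf2 KO and Keap1 KD livers, with 95% intervals. Filled points passed the test, 4 in Nrf1 CKO (Pgd at 0.66, H6pd at −0.69, Pgls at −0.67, Idh1 at −0.66), 0 in Nrf2 KO and 2 in Keap1 KD (Pgd at 1.14, Tkt at 0.96).

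Whether the lines differed in a member was tested as the difference between their effects, each taken against its own control. Pgd differed between the Keap1 KD effect and the Nrf2 KO effect, by 1.19 (SE 0.26, 95% interval 0.65 to 1.74; limma, adjusted p = 0.0243), the 1 member called where 3.09% of genes were. Tkt (1.10, SE 0.30; adjusted p = 0.0601) and Me1 (2.02, SE 0.68; adjusted p = 0.125) did not pass. The Pgd call was lost without Nrf2 Control 3 (1.14, adjusted p = 0.0639), Nrf2 KO 1 (1.08, adjusted p = 0.0680), Keap1 Control 3 (1.18, adjusted p = 0.0514) or Keap1 KD 1 (1.13, adjusted p = 0.0508), and with slide as a block (0.91, adjusted p = 0.372) or scan date as a block (1.04, adjusted p = 0.189).

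Between the Nrf1 CKO effect and the Keap1 KD effect 0 of 8 members passed (limma; 6.92% of genes did), and 5 had an unadjusted p under 0.05. Tkt differed by −1.0 (SE 0.30; adjusted p = 0.0544), Me1 by −2.12 (SE 0.68; adjusted p = 0.0665), H6pd by −0.86 (SE 0.30; adjusted p = 0.0848), Pgls by −0.83 (SE 0.29; adjusted p = 0.0871) and Idh1 by −0.73 (SE 0.29; adjusted p = 0.119). Pgd, higher in both mutants than in their controls, had a difference between these effects of −0.48 (95% interval −1.02 to 0.06). Between the Nrf1 CKO effect and the Nrf2 KO effect 0 of 8 members passed either (5.58% of genes did), with 1 at an unadjusted p under 0.05, Pgd at 0.71 (SE 0.26; adjusted p = 0.105).

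Among the control livers, the C57BL/6 Nrf2 Control group was set against the mean of both mixed-strain control groups. None of the 8 members passed (limma, 0 at an unadjusted p under 0.05), although 17.4% of all genes did, and the differences ran from −0.27 for H6pd to 0.44 for Me1. Strain, line and control genotype cannot be told apart in this comparison.

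Across all 6 groups, the mean level of Pgd was 3.33 in Keap1 KD and 2.84 in Nrf1 CKO, followed by 2.37 in Nrf2 Control, 2.31 in Nrf2 KO, 2.20 in Keap1 Control and 2.18 in Nrf1 Control. Keap1 KD stood apart from the next group, and from Nrf1 CKO downward each group overlapped its neighbour. On the second Pgd probe Keap1 KD was again highest (2.31). Nrf1 CKO (1.36) lay below Nrf2 Control (1.44) and Keap1 Control (1.41) there, so that its place among the controls of other lines depended on the probe. Tkt was at 6.90 in Keap1 KD, and the means of the other 5 groups lay between 5.85 and 6.00, each overlapping its neighbour. Me1 was at 3.68 in Keap1 KD, 3.22 in Nrf2 Control, 2.95 in Nrf1 Control, 2.60 in Keap1 Control, 2.28 in Nrf2 KO and 1.92 in Nrf1 CKO, and only the last of these steps, between Nrf2 KO and Nrf1 CKO, was without overlap. Idh1 had the same pair at the low end, 1.67 in Nrf2 KO and 1.26 in Nrf1 CKO, again without overlap, below 4 overlapping groups at 1.87 to 1.97. Pgls stood apart only in Nrf1 CKO (3.48, below 5 overlapping groups at 3.91 to 4.16), and G6pdx (0.70 to 1.38) and Taldo1 (6.34 to 6.49) showed no gap between neighbouring groups. H6pd was lowest in Nrf2 KO (5.23), apart from Nrf1 CKO (5.45) above it, on the probe used. On its second probe Nrf1 CKO was lowest (1.49), followed by Nrf1 Control (1.86) and Nrf2 KO (2.16), so that this order across lines depended on the probe.

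Over the 18 arrays the members formed no single pattern, as their pairwise correlations ran from −0.16, between Pgd and Pgls, to 0.83, between Me1 and Idh1. G6pdx correlated with Pgd at 0.73 and with Tkt at 0.62, and Tkt with Pgd at 0.71 and with Me1 at 0.73. These are descriptions over arrays that share groups, slides and scaling. Of all tested genes with a symbol, those most like Pgd were Gsta1 (Pearson's r 0.903), Gsta2 (0.898) and Cbr3 (0.884), glutathione S-transferases and a carbonyl reductase. Those most like Tkt were Gsta4 (0.876), Ftl1 (0.857), the ferritin light chain, and Gstm4 (0.854). Among those most like G6pdx were Cs (0.758), citrate synthase, and Cdc42ep5 (0.736), a weaker likeness than for the other members. Me1 was most like Cyp2a5 (0.860), a cytochrome P450, Cenpv (0.859) and Slc1a2 (0.834), a glutamate transporter. Idh1 was most like Nxt2 (0.917), Rnf13 (0.885) and Akr1c14 (0.869), Pgls most like Cyp2d10 (0.937), Mea1 (0.936) and Pcbd2 (0.934), H6pd most like Rab5a (0.927), Tacc1 (0.913) and Wrnip1 (0.906), and Taldo1 most like Rbm4 (0.825), Mbtps1 (0.811) and Cisd2 (0.807).

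Counts of called genes in the 6 related lists stand against the shares of all genes given above, 7.99% higher and 10.9% lower in Nrf1 CKO, 0.00564% and 0.0564% in Nrf2 KO, and 0.948% and 4.58% in Keap1 KD. Of 9 other genes of pentose and ribose metabolism 7 were measured, and 0 were called in Keap1 KD (median 0.13) and 0 in Nrf2 KO (median 0.02). In Nrf1 CKO 3 of the 7 fell and 0 rose (median −0.43): sedoheptulokinase Shpk (−0.93, SE 0.24), ribokinase Rbks (−0.81, SE 0.23) and the phosphoribosyl pyrophosphate synthetase Prps1 (−0.66, SE 0.17; limma, adjusted p from 0.0161 to 0.0266). Tktl1 and Tktl2, relatives of Tkt, were not above background in any full group and were not tested.

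Of 10 further genes listed for NADPH formation or NADP supply, 9 were measured, and 0 were called in Keap1 KD (median 0.19) or Nrf2 KO (median 0.11). Whether each of them works with NADP or with NAD in these livers was not tested. In Nrf1 CKO 2 rose and 3 fell (median −0.18). The mitochondrial folate enzyme Mthfd2 was not well above background on any Nrf1 Control array and was at least 3.02-fold higher in Nrf1 CKO (limma, adjusted p = 0.00950). It passed the background filter only through the Nrf1 CKO group, where it was high, so that its call is no independent support for a rise. Its difference was 0.03 after normexp background correction. Mitochondrial Idh2 rose by 0.54 (SE 0.18; limma, adjusted p = 0.0470). The cytosolic folate enzymes Aldh1l1 (−1.49, SE 0.30; adjusted p = 0.00543) and Mthfd1 (−0.60, SE 0.20; adjusted p = 0.0471) fell, as did the NAD kinase Nadk (−0.71, SE 0.18; adjusted p = 0.0179). Idh2, in the mitochondria, moved opposite to cytosolic Idh1 in these livers, at levels of 2.53 to 3.07 in Nrf1 CKO against 2.25 to 2.48 in Nrf1 Control. The rise of Idh2 was not particular to this line. It differed by 0.62 in Nrf2 KO (SE 0.18; limma, adjusted p = 0.306), at 3.02 to 3.25 against 2.33 to 2.70 in Nrf2 Control. In Keap1 KD it differed by 0.37 (SE 0.18; limma, adjusted p = 0.324), and neither difference was called.

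Of 15 enzymes that spend NADPH, 14 were measured, and in Keap1 KD 4 rose and 0 fell (median 0.20): the carbonyl reductase Cbr3 (6.39, SE 0.46), the quinone reductase Nqo1 (3.33, SE 0.25), glutathione reductase Gsr (1.0, SE 0.15) and thioredoxin reductase Txnrd1 (0.97, SE 0.16; limma, adjusted p from 6.55e-06 to 0.00378). The differences of Gsr and Txnrd1 were of about the size of those of Pgd and Tkt. In Nrf2 KO 1 fell, Nqo1 (−1.47, SE 0.25; adjusted p = 0.0384), and 0 rose (median −0.44). In Nrf1 CKO Cbr3 rose (1.61, SE 0.46; adjusted p = 0.0259), while the P450 reductase Por (−1.06, SE 0.31; adjusted p = 0.0299) and the steroid reductase Srd5a1 (−1.06, SE 0.35; adjusted p = 0.0481) fell (median −0.20). Counts of 1 higher and 2 lower in 14 are close to the 7.99% and 10.9% of all genes and are no result about this list.

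In fatty acid synthesis, a main use of NADPH in liver, 3 of 12 genes fell in Nrf1 CKO and 0 rose (median −0.78), namely Thrsp (−1.82, SE 0.58), the desaturase Scd1 (−1.63, SE 0.37) and ATP citrate lyase Acly (−1.26, SE 0.35; limma, adjusted p from 0.00902 to 0.0417). In Nrf2 KO (median 0.42) and Keap1 KD (median −0.28) 0 of the 12 were called. Of 9 genes that bring glucose into the pathway or share its first sugar phosphates, 1 fell in Nrf1 CKO, the gluconeogenic enzyme Fbp1 (−0.80, SE 0.17; adjusted p = 0.00635; list median −0.57), and 0 were called in Nrf2 KO (median 0.22) or Keap1 KD (median −0.17). A count of 1 in 9 is close to the 10.9% of all genes called lower and is no result about this list. Of 10 antioxidant genes known as NRF2 targets, 9 were measured, 2 of them also in the preceding list of NADPH-spending enzymes, and 7 rose in Keap1 KD (median 1.27), among them Srxn1 (2.06, SE 0.25), Ephx1 (1.47, SE 0.31) and Gsta4 (1.43, SE 0.28). In Nrf1 CKO 3 of these 9 rose (median 0.14), Ephx1 (1.47, SE 0.31), Srxn1 (1.13, SE 0.25) and Hmox1 (0.93, SE 0.27), and in Nrf2 KO 1 fell, Nqo1 (median −0.58).

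The list medians moved with the setting. In Nrf2 KO the median of the NADPH-spending enzymes took the opposite sign with slide (0.17) or scan date (0.10) as a block, and that of fatty acid synthesis was 1.87 and 1.54 under these blocks. Also in Nrf2 KO, the medians of the NADPH-forming genes (−0.14) and of glucose entry (−0.02) turned after normexp, that of the NADPH-forming genes also turned without Nrf2 KO 2 (−0.03), and that of the pentose and ribose genes, between −0.20 and 0.23, turned in 8 of 23 alternatives. In Nrf1 CKO the median of the NADPH-forming genes turned after quantile normalization (0.02), and that of the NADPH-spending enzymes turned after quantile normalization (0.11) and after normexp with quantile normalization (0.13). In Keap1 KD the median of the NADPH-spending enzymes was 0.71 with a slide block, 0.69 with a scan date block and 0.62 without Keap1 Control 1. The median of fatty acid synthesis there was −0.66 without Keap1 Control 2, −0.07 without Keap1 Control 1 and above 0 with array median scaling (0.01), normexp (0.06) and a scan date block (0.02), and that of glucose entry was 0.12 with array median scaling and −0.06 without Keap1 Control 2. With 1 array left out, the Keap1 KD medians were 0.03 (without KD 2) to 0.21 (without Control 3) for pentose and ribose genes and 0.08 (without Control 1) to 0.32 (without KD 3) for NADPH-forming genes. The antioxidant list kept the sign of its median in all 23 alternatives of each line, from 1.10 to 1.66 in Keap1 KD, from −0.85 to −0.33 in Nrf2 KO and from 0.04 to 0.40 in Nrf1 CKO. Each called gene of these lists kept its sign under every alternative run. Over these alternatives the named genes passed in as few as 11 of 23 in Nrf1 CKO (Idh2, Mthfd1 and Srd5a1) and as many as 22 (Aldh1l1), Nqo1 in Nrf2 KO passed in 10, and those in Keap1 KD passed in 16 (Ephx1) to 23 (Cbr3 and Nqo1). With slide as a block 0 genes of these 6 lists were called in Nrf1 CKO or Nrf2 KO. In Keap1 KD Cbr3 and Nqo1 were, and Nqo1 stands on both the NADPH-spending and the antioxidant list.

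**Figure D3:**
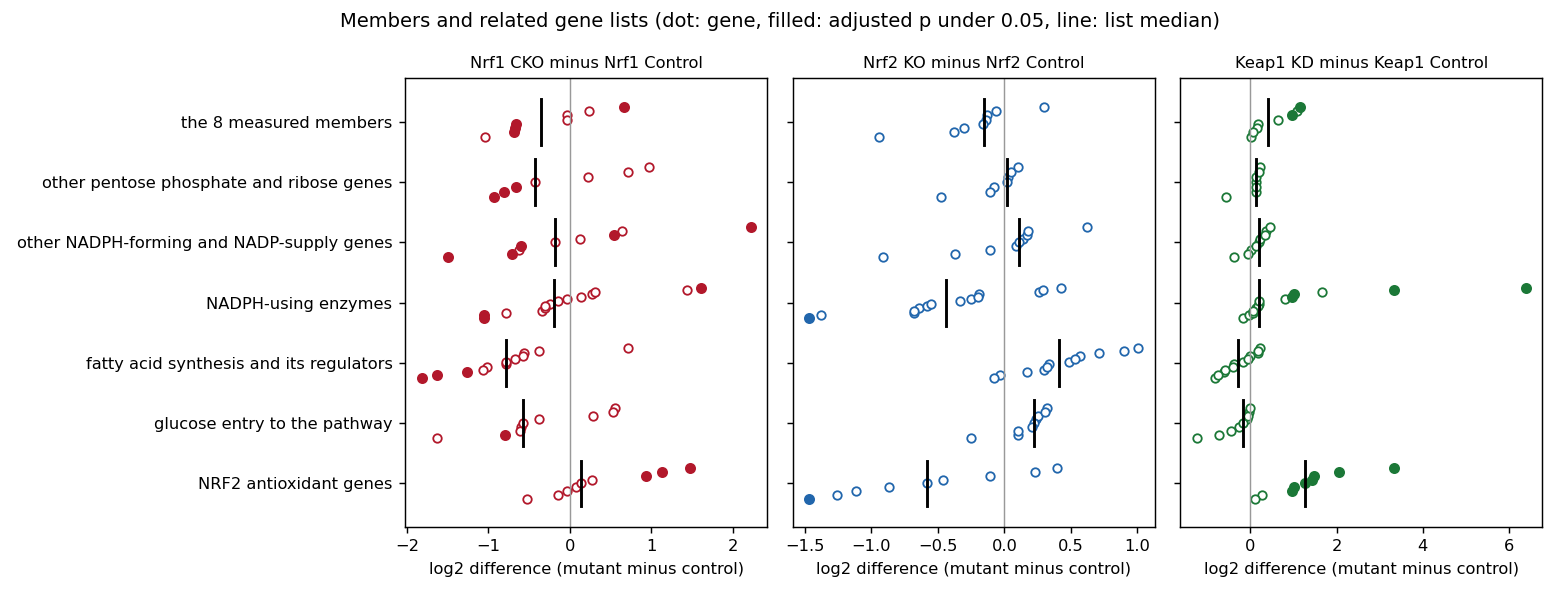
Log2 difference from the own control (x axis, scaled per panel) for the 8 measured members and the genes of the 6 related lists in Nrf1 CKO, Nrf2 KO and Keap1 KD livers. Each dot is a gene, filled where it passed the test, and the line is the list's median: 0.40 for the members and 1.27 for the antioxidant genes in Keap1 KD, and −0.35 for the members and −0.78 for fatty acid synthesis in Nrf1 CKO.

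The alternatives to the processing moved both the differences and the adjusted p-values. Over 23 alternatives, Pgd in Keap1 KD differed by 0.95 to 1.43 and was called in 21, and Tkt differed by 0.73 to 1.33 and was called in 17. In Nrf1 CKO, Pgd differed by 0.53 to 0.88 and was called in 14, Pgls by −0.87 to −0.29 and called in 13, Idh1 by −0.85 to −0.45 and called in 13, and H6pd by −0.79 to −0.26 and called in 11. Me1 in Nrf1 CKO differed by −1.45 to −0.82 and was called in 2.

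**Figure D4:**
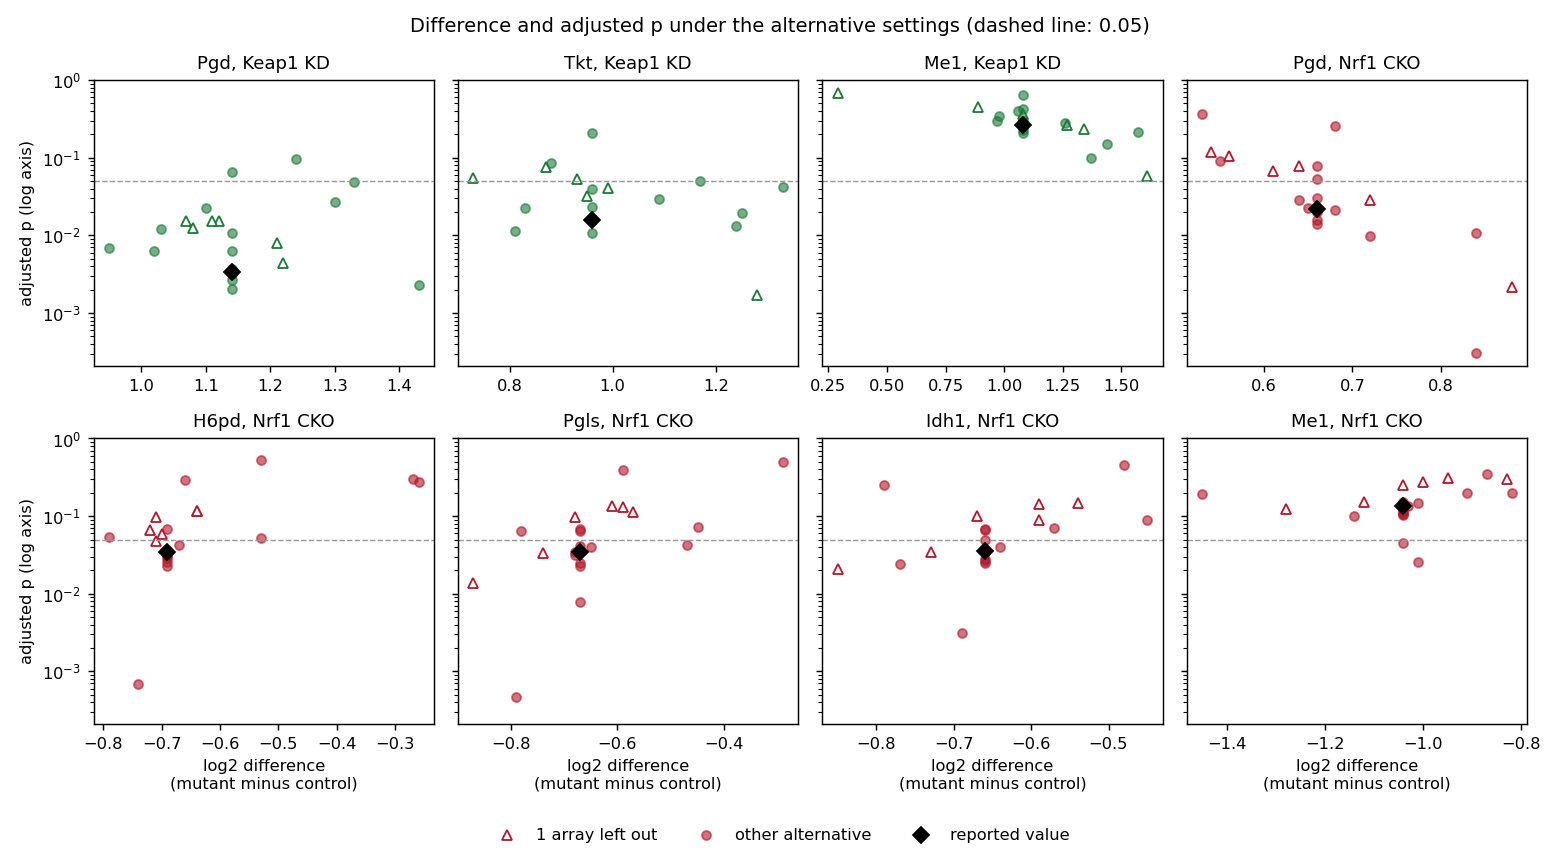
Log2 difference (x axis, mutant minus control, scaled per panel) and limma adjusted p (y axis, log scale, dashed line at 0.05) of 8 results under the reported setting (black diamond), with 1 array left out (triangles) and under the other alternatives (circles). Pgd in Keap1 KD stays between 0.95 and 1.43 and lies under the line in 21 of 23 alternatives, while Me1 in Keap1 KD runs from 0.29 to 1.61 and lies under it in 0.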

How the data were processed

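Per the labels' protocols, liver RNA of 18 samples was labelled with Cy3 and put on Agilent mouse arrays of 1 colour, with 1 array for each sample. Per the file headers, Agilent Feature Extraction (version 10.7.3.1) produced the deposited intensities: the processed signal is background-subtracted and detrended by that software and not normalized between arrays, and the median spot and background intensities are raw. The flags for outliers and for signal well above background come from the same software. The authors' series table held the same processed intensities at all 810324 entries compared (relative tolerance 1e-06).

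Of 45018 spots per array, 1639 controls and all outlier spots were left out. Log2 processed signals were averaged per probe (41174 probes) and scaled by subtracting the array's log2 75th percentile over spots. A probe was kept if every array of some group (3 of 3) showed it well above background (23554 probes), counted on an array where at least 50% of its spots were. The brightest kept probe stood for a gene, which left 17721 genes, 12874 with a symbol. Symbols came from RefSeq transcripts (26690 probes) or, for 28 probes, from the array's own symbol or a synonym. Members matched 8 of 10.

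With limma (version 3.58.1, R 4.3.3), 1 model of 6 group means took in all 18 arrays (12 residual and 3.07 prior degrees of freedom, no trend), with Benjamini-Hochberg adjustment over all 17721 genes and calls at an adjusted p under 0.05. The median SE of a difference was 0.244 (log2), and the number of arrays limits precision. A bound of at least so many fold sets the bright group's mean against, per array, the higher of the dim probe's signal and the lowest signal of any probe well above background. The scripts were tested on simulated data. Named genes were all members, the targeted genes, up to 4 called genes of each list by size of difference, and the 3 genes that correlated best with each member, of which 1 is not reported here. Idh2, Trem2, Lyve1, Lum, Marco, Gpnmb, Adgre1, Clec4f, Csf1r, Timd4, Vsig4, Tktl1, Tktl2 and the markers not above background fall outside this rule and were named after their values were seen. The members and lists were chosen with earlier results of these data known.

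The alternatives tried were scaling to the array median, quantile normalization, use of the authors' table, normexp (offset 50) on median intensities with either scaling, other background filters, the mean of all probes, outlier spots kept, the arrays of the compared lines alone, an intensity trend, array weights, a replicate block, slide (7 slides) and scan date (4 dates) as blocks, and each array left out in turn. The percentile over probes was added after seeing the data.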

Additional observations from a re-analysis of the deposited data

Results flagged for a closer look

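Pgd differed between lines: its Keap1 KD effect exceeded its Nrf2 KO effect by 1.19 on the log2 scale (SE 0.26; limma, adjusted p = 0.0243). The effects were 1.14 in Keap1 KD, where the groups did not overlap, and −0.06 in Nrf2 KO, where they did. Over 29 alternatives the difference lay between 0.91 and 1.62, above 0 in all 29 and called in 20.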

How the results depend on the processing

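Counts of members called are given over the 8 measured members. In Nrf1 CKO the count of 4 became 1 after quantile normalization and with array median scaling, 0 after normexp, without the background filter and with slide as a fixed block, 2 with the arrays of the line alone, and 0 to 4 with 1 array left out. In Keap1 KD the count of 2 became 0 with the arrays of the line alone and with slide as a fixed block, 1 with array quality weights, and 1 to 2 with 1 array left out. In Nrf2 KO and between the control strains the count was 0 under every alternative run. For the Keap1 KD effect minus the Nrf2 KO effect the count of 1 became 0 after quantile normalization, without the background filter and with either fixed block, slide or scan date, 2 with an intensity trend, and 0 to 3 with 1 array left out. For the Nrf1 CKO effect minus the Nrf2 KO effect the count of 0 became 2 with array quality weights and 0 to 1 with 1 array left out. For the Nrf1 CKO effect minus the Keap1 KD effect the count of 0 became 5 with array median scaling, 1 with only probes above background on all arrays, with an intensity trend, with array quality weights and with scan date as a fixed block, and 0 to 2 with 1 array left out. With the replicate number as a block this count became 2, and the block moved no other count of members called by over 1.5 times. The numbers do not pair the samples, since deviations of same-numbered samples from their group means correlated at −0.359 to 0.147. Taldo1 in Nrf1 CKO turned to 0.45 (limma, adjusted p = 0.0359) after normexp and quantile normalization, against −0.04 as reported. The cause of these changes was not tested.

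Array median scaling moved the median difference of all genes to 0.29 in Keap1 KD, against 0.00, and to −0.20 in Nrf1 CKO, against −0.09 (−0.20 after normexp and −0.32 without the filter), so that Pgd at 1.43 and Tkt at 1.25 in Keap1 KD under that scaling lie on a shifted base. The share of all called genes that were higher was 42.3% in Nrf1 CKO and 17.2% in Keap1 KD as reported, 55.1% and 27.4% after quantile normalization, 35.3% and 48.8% with array median scaling, 58.4% and 74.5% after normexp and 53.8% and 27.8% after both. All genes called in Nrf1 CKO numbered 3348 as reported, 344 after normexp, 2117 without the filter, 8165 with array weights, 65 with slide as a fixed block and 939 to 4160 with 1 array left out. In Keap1 KD they numbered 979, and 555 after quantile normalization, 55 after normexp, 615 without the filter, 440 with only probes above background on all arrays, 52 with the line alone, 248 with array weights, 55 with a slide block and 255 with a scan date block, and 350 to 1048 with 1 array left out. In Nrf2 KO they numbered 11, and 22 with array median scaling, 20 with an intensity trend, 75 with array weights, 6 with the line alone 7 after normexp or with scan date as a block and 6 to 12 with 1 array left out. The contrast between control strains cannot be estimated with slide or scan date as a fixed block, so these were not run.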
